A study of Homo sapiens with 24 samples.

Results

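The genes described here are 5 members of the fibroblast growth factor (FGF) system other than FGFR3: the receptor tyrosine kinases FGFR1, FGFR2 and FGFR4, the receptor-like protein FGFRL1 and the secreted FGF-binding protein FGFBP1. They were chosen by name, with earlier results of these data known, as 5 of the 19775 genes measured. On the array 25 probe sets were annotated to them. Of these, 7 belonged to FGFR1, 11 to FGFR2, 4 to FGFR4, 2 to FGFRL1 and 1 to FGFBP1. The probe set of highest mean stood for its gene, and the others served as a check.

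The 24 arrays measured expression in RT112 cells, a human bladder cancer line in long use that is known to carry a fusion of FGFR3 with TACC3. Cells were transduced with a hairpin that doxycycline switches on, directed against FGFR3 in the lines 2-4, 4-1 and 6-16 and against EGFP, a jellyfish gene that human cells lack, in the control line. All groups were kept in medium with 1% serum, and those with doxycycline received 1 µg/ml for 48 h. The 8 groups of 3 arrays were therefore the 2-4, 4-1, 6-16 and EGFP lines with doxycycline and the same lines without it. The labels give neither the promoter of the hairpin nor whether a line is 1 clone, and they do not say whether the 3 arrays of a group came from separate cultures. The p-values then measure only the spread between these arrays. The stated purpose was to find genes that depend on FGFR3, as those that differ with doxycycline in all 3 FGFR3 hairpin lines and not in the control line.

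FGF receptors bind FGFs together with heparan sulfate on the cell surface, dimerise, and signal through adaptors such as FRS2 to the RAS and ERK pathway. FGFR1, FGFR2, FGFR3 and FGFR4 have a tyrosine kinase domain inside the cell, and FGFRL1 has none. FGFBP1 is a secreted protein that binds FGFs and releases them from the heparan sulfate of the extracellular matrix. In epithelia, including urothelium, the usual splice form of FGFR2 binds FGFs made by the underlying stroma, and FGFR3 is the receptor most often activated in bladder cancer.

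The arrays did not group by their labels. For 0 of the 24 arrays was the array with the most similar profile (Pearson r of gene-centred values over all genes) from the same labelled group, and for 0 was it from the same labelled line. It had the same labelled doxycycline state for 13 arrays. The arrays instead formed 7 sets of 3 that were each other's nearest, which held 21 arrays, and 1 of these sets held more than 1 array of a labelled group. FGFR3, the targeted gene, did not pass as lower with doxycycline in any line on its brighter probe set, 204379_s_at. Adjusted p was 0.760 to 1.00 by limma over the 4 lines. Its difference with minus without doxycycline there was 0.15, -0.24 and 0.42 in the 2-4, 4-1 and 6-16 lines. In the EGFP line it was 0.16, each with an SE of 0.31. On this probe set the difference was thus above 0 in 2 of the 3 FGFR3 hairpin lines. The dimmer probe set, 204380_s_at, was not tested by itself. With doxycycline against without, it was at 10.58, 9.21 and 10.95 against 10.37, 8.71 and 11.14 in the 2-4 line. It was at 9.29, 10.59 and 10.49 against 8.96, 9.75 and 10.80 in the 4-1 line. In the 6-16 line it was at 10.47, 8.91 and 10.84 against 11.03, 10.48 and 11.20. In the EGFP line it was at 10.67, 10.34 and 9.88 against 9.80, 10.58 and 9.19. Groups are therefore named below as the arrays are labelled. Each difference is one between labels, and whether the labels match the cells on the arrays was not tested. Epithelial markers were high, with EPCAM at 12.73 to 13.05 and GATA3 at 13.09 to 13.66 on the log2 scale, and of the uroplakins, the plaque proteins of urothelium, UPK1B was at 12.28 to 13.57, UPK1A at 10.01 to 12.97, UPK2 at 8.37 to 10.17 and UPK3A at 6.96 to 7.43. The leukocyte marker PTPRC was at 5.60 to 5.97. Of the fibroblast markers LUM was at 12.84 to 13.56, and the other 9 were between 4.70 and 9.39.

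FGFBP1 and FGFR2 varied most among the 5 genes, and neither followed the labels. FGFBP1 spanned 2.53 on the log2 scale over the 24 arrays, from 8.84 to 11.38, a wider span than that of 99.5% of genes. FGFR2 spanned 1.16, from 9.27 to 10.43, wider than 94.0% of genes. FGFR1 spanned 0.46, from 8.68 to 9.14, FGFR4 spanned 0.43, from 7.09 to 7.52, and FGFRL1 spanned 0.34, from 8.54 to 8.87. The median span over all genes was 0.49, so the last 3 genes lay below it. Levels on an array are not comparable between genes, because each probe set binds with its own strength.

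The start regions of FGFBP1 and FGFR2 are shown because, of the 5 genes, their levels split the arrays most widely and in opposite directions. Each is the RefSeq window of 300 bases, from 250 before the start site to 50 after it, on build GRCh38.p14, written 5′ to 3′ on the gene's own strand. Capitals mark matches, on either strand, to any of 5 motifs. These were the AP-1 site TGANTCA, the ETS core CCGGAA, the GC box GGGCGG, the CCAAT box CCAAT and the TATA box TATAAA. The FGFBP1 window lies at chr4:15938691-15938990 on the minus strand, and the FGFR2 window, that of the most upstream of 5 listed starts, at chr10:121598395-121598694 on the minus strand.
FGFBP1: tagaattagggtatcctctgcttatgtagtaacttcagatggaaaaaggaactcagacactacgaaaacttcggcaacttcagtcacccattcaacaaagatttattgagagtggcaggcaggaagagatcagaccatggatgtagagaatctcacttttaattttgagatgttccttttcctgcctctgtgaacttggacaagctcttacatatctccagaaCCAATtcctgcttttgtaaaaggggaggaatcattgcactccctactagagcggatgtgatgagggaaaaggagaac
FGFR2: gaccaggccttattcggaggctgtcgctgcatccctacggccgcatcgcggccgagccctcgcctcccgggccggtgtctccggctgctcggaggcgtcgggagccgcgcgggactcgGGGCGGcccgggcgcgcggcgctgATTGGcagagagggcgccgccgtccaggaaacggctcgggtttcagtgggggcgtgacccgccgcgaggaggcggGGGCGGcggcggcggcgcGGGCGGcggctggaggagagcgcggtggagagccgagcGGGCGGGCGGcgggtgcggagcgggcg

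The windows differ in base composition. That of FGFBP1 held 42% G and C with 3 CpG steps, and the FGFR2 window shown held 79.3% with 52 CpG steps, where the median of all 35116 promoters listed was 58.7%. The other listed FGFR2 windows held 47.3% to 50.7% with 5 to 8 CpG steps, and at most 1 GC box each. The FGFBP1 window held 1 CCAAT box, 27 bases before the start, and none of the other 4 motifs. The FGFR2 window shown held 5 GC boxes, of which the last 2 overlap by their ends, and 1 CCAAT box on the opposite strand. A CCAAT box stood in 34.6% of all windows of this length, a GC box in 45.0%, an ETS core in 17.2%, a TATA box in 11.5% and an AP-1 site in 7.71%. FGFR4 had 2 listed windows and FGFRL1 had 1, and FGFR1 had no entry in the table used.

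FGFBP1 was followed first by label. In the 2-4 line its log2 level was 11.02, 8.89 and 11.00 on the arrays with doxycycline, against 10.95, 8.92 and 11.29 without. In the 4-1 line it was 8.84, 10.31 and 10.98 with doxycycline, against 9.04, 9.13 and 11.09 without. Both lines thus held arrays near 9 and arrays near 11 under either label, and the groups overlapped. In the 6-16 line the level was 11.03, 9.01 and 10.87 with doxycycline, against 11.38, 10.16 and 11.35 without. In the EGFP line it was 11.00, 10.95 and 9.15 with doxycycline, against 9.06, 10.20 and 8.99 without. Here too the labelled groups overlapped.

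The group means of FGFBP1 are given with their SD (n = 3). The mean was 10.30 ± 1.23 with doxycycline and 10.39 ± 1.28 without it in the 2-4 line, and 10.05 ± 1.09 with and 9.76 ± 1.16 without in the 4-1 line. It was 10.31 ± 1.13 with doxycycline and 10.96 ± 0.70 without it in the 6-16 line, and 10.36 ± 1.06 with and 9.41 ± 0.68 without in the EGFP line. When the 8 means were put in order, each of the 7 steps between neighbours was smaller than the larger SD of the neighbours, and the largest step was 0.58. With minus without doxycycline, FGFBP1 differed by -0.08, 0.29 and -0.66 in the FGFR3 lines 2-4, 4-1 and 6-16 and by 0.95 in the EGFP line, each with an SE of 0.79. The 95% intervals were -1.74 to 1.58, -1.37 to 1.95, -2.32 to 1.00 and -0.71 to 2.61. Adjusted p by limma was 0.999, 1.00, 0.855 and 0.975. The sign rested on single arrays in the 2-4 and 4-1 lines. Leaving out replicate 2 of the 2-4 group with doxycycline turned its difference to 0.62, and leaving out replicate 3 of the 4-1 group with doxycycline turned that one to -0.18.

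FGFR2, whose log2 level spanned less than that of FGFBP1, also had high and low arrays under most labels. In the 2-4 line it was at 9.43, 10.28 and 9.84 with doxycycline, against 9.51, 10.07 and 9.27 without. In the 4-1 line it was at 10.35, 9.45 and 9.48 with doxycycline, against 10.16, 10.36 and 9.88 without. On the arrays where FGFBP1 was near 9 in these groups, FGFR2 was at 10 or above, and the groups overlapped. In the 6-16 line it was at 9.47, 10.13 and 9.65 with doxycycline, against 9.35, 9.59 and 9.31 without. In the EGFP line it was at 9.39, 9.39 and 10.27 with doxycycline, against 10.43, 9.34 and 10.22 without. Neither of these lines separated its arrays by doxycycline label.

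The mean of FGFR2 (SD, n = 3) was 9.85 ± 0.42 with doxycycline and 9.62 ± 0.41 without it in the 2-4 line. It was 9.76 ± 0.51 with and 10.13 ± 0.24 without doxycycline in the 4-1 line. In the 6-16 line it was 9.75 ± 0.34 with and 9.42 ± 0.15 without, and in the EGFP line 9.68 ± 0.51 with and 9.99 ± 0.58 without. All 7 steps between neighbouring means were smaller than the larger SD of the neighbours. The differences with minus without doxycycline were 0.23, -0.37, 0.33 and -0.31 in the 2-4, 4-1, 6-16 and EGFP lines (SE 0.31), and the 95% intervals all held 0. Adjusted p by limma was 0.999, 1.00, 0.815 and 0.975. Leaving out 1 array moved the FGFR2 difference to between 0.018 and 0.46 in the 2-4 line, the lowest without replicate 2 with doxycycline, and to between -0.64 and -0.095 in the EGFP line, the nearest to 0 without replicate 1 without doxycycline.

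FGFR1, the receptor that many mesenchymal cells use, varied within a narrow span. Its log2 level was 8.85, 8.82 and 8.74 with doxycycline and 8.99, 8.90 and 8.74 without it in the 2-4 line. It was 8.92, 8.78 and 8.83 with and 8.85, 8.91 and 8.99 without doxycycline in the 4-1 line. In both lines the ranges overlapped. It was 8.83, 8.85 and 8.95 with and 8.98, 9.12 and 8.92 without doxycycline in the 6-16 line, and 8.68, 9.14 and 9.05 with and 8.83, 8.78 and 9.03 without in the EGFP line. The EGFP arrays with doxycycline held both the lowest and the highest value of the 24. The differences were -0.07, -0.08 and -0.13 in the 2-4, 4-1 and 6-16 lines and 0.08 in the EGFP line (SE 0.10). Adjusted p by limma was 0.768 or more.

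FGFR4, known as the receptor for FGF19 in liver, was the receptor whose labelled groups differed with the lowest unadjusted p, in the 4-1 line. There its log2 level was 7.13, 7.41 and 7.52 with doxycycline, against 7.19, 7.24 and 7.09 without. The difference was 0.18 (SE 0.098, 95% interval -0.02 to 0.39), with an adjusted p of 1.00 by limma, and the ranges overlapped. In the other two FGFR3 lines it was 7.43, 7.11 and 7.28 with and 7.35, 7.25 and 7.43 without doxycycline (2-4), and 7.34, 7.19 and 7.31 with and 7.15, 7.19 and 7.24 without (6-16). In the EGFP line it was 7.36, 7.35 and 7.26 with doxycycline and 7.10, 7.39 and 7.31 without. These differences were -0.07, 0.08 and 0.05 in the 2-4, 6-16 and EGFP lines, none beyond its SE of 0.098.

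FGFRL1, the kinase-less receptor, had the narrowest span of the 5 genes. In the 2-4 line its log2 level was 8.80, 8.66 and 8.83 with doxycycline, against 8.63, 8.68 and 8.60 without, and the ranges overlapped. In the 4-1 line it was 8.74, 8.69 and 8.68 with doxycycline, against 8.63, 8.74 and 8.81 without. In the 6-16 line it was 8.76, 8.57 and 8.81 with doxycycline, against 8.67, 8.72 and 8.54 without. In the EGFP line it was 8.87, 8.71 and 8.85 with doxycycline, against 8.75, 8.78 and 8.59 without. The differences were 0.13, -0.03, 0.07 and 0.11 in the 2-4, 4-1, 6-16 and EGFP lines (SE 0.077), with adjusted p by limma of 0.833 or more.

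**Figure D1:**
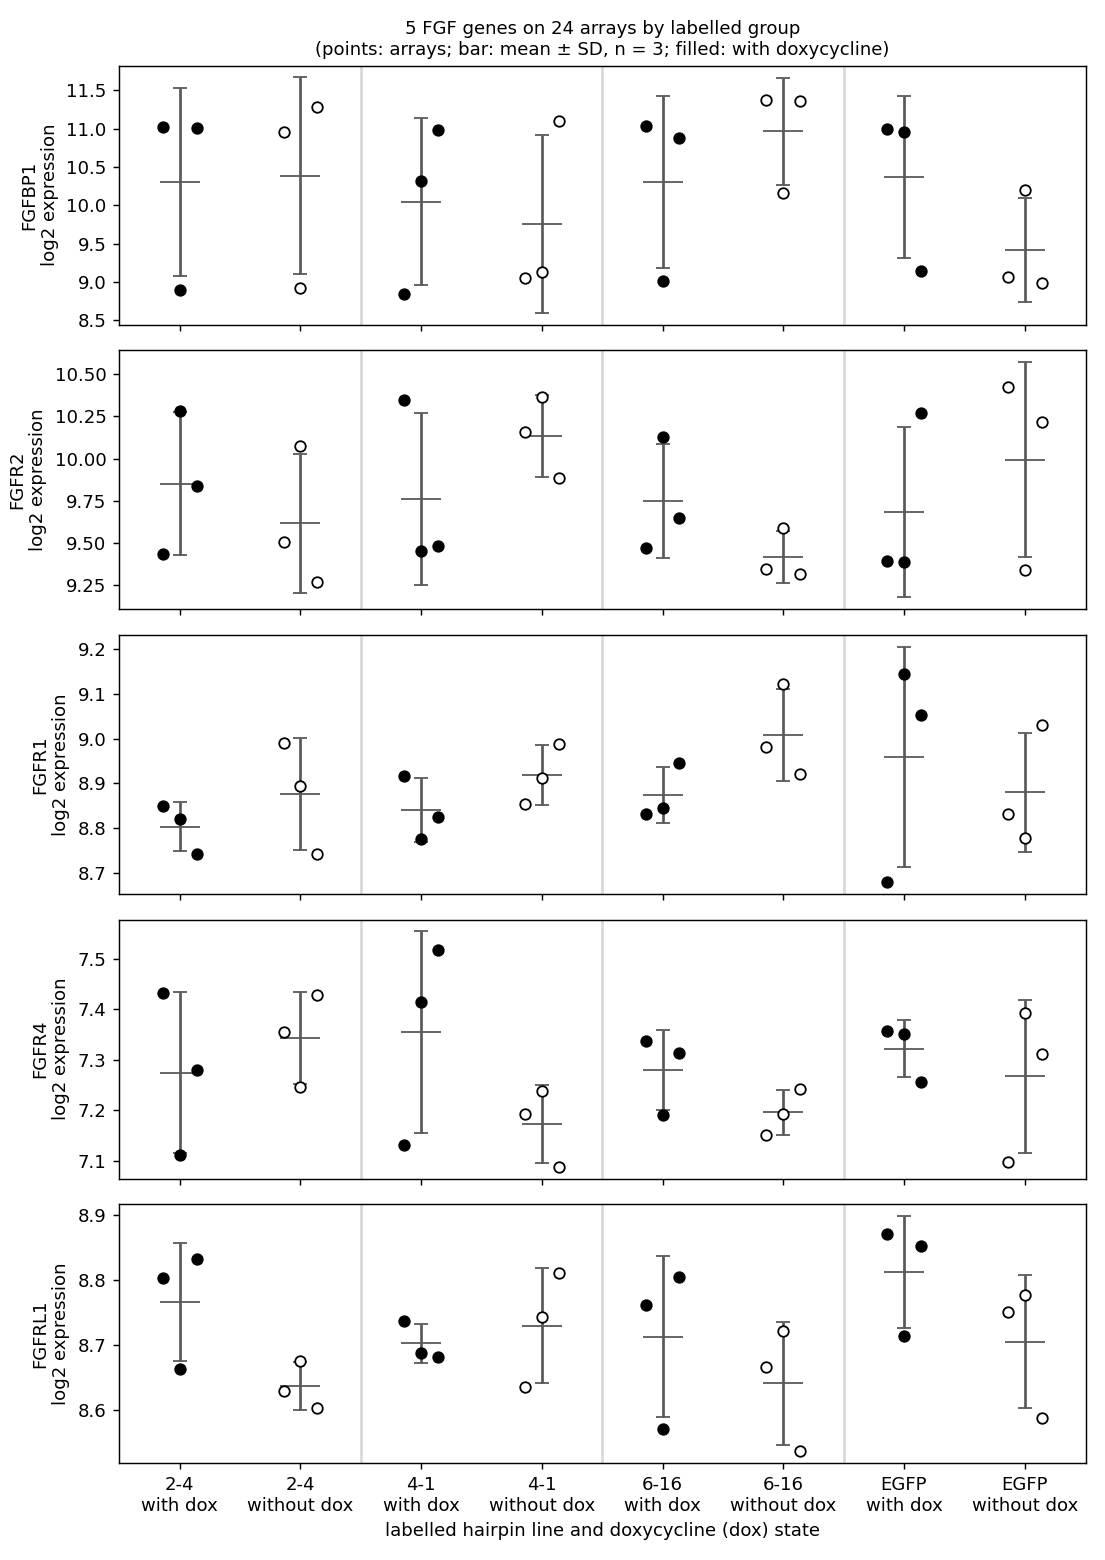
Log2 expression of the 5 genes (vertical axes, 1 panel per gene) in the 8 labelled groups, each line with doxycycline left of the same line without it. Points are arrays and bars are means ± SD (n = 3). In FGFBP1 the points of most groups split between about 9 and 11, so that the error bars are wide.

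None of the 5 genes passed in any comparison. By limma with Benjamini-Hochberg adjustment over all genes, 0 of the 5 were called in each of the 4 lines, in the mean FGFR3 line difference minus the EGFP line difference, in the comparison of the FGFR3 lines with the EGFP line without doxycycline, and in the F-test among the FGFR3 lines. The share called among all 19775 genes was 0% in each of the 7. At an unadjusted p under 0.05 the counts over all genes were 487, 223, 1539 and 505 in the 2-4, 4-1, 6-16 and EGFP lines, and 428, 576 and 636 in the last 3 comparisons. Of the 5 genes, 0 were below that level in any of them. With array weights in the fit, 1291 genes passed in the 6-16 line, and 0 of the 5 were among them. The mean difference of the 3 FGFR3 lines minus that of the EGFP line was -1.10 ± 0.92 (SE) for FGFBP1, with a 95% interval of -3.02 to 0.82, and 0.38 ± 0.36 for FGFR2. It was -0.17 ± 0.12 for FGFR1, 0.01 ± 0.11 for FGFR4 and -0.05 ± 0.09 for FGFRL1. Without doxycycline, the FGFR3 lines minus the EGFP line gave 0.96 ± 0.65 for FGFBP1, -0.27 ± 0.26 for FGFR2, 0.05 ± 0.08 for FGFR1, -0.03 ± 0.08 for FGFR4 and -0.04 ± 0.06 for FGFRL1. The 8 labels held 20.0% of the variance of FGFBP1, 27.1% of FGFR2, 26.9% of FGFR1, 28.2% of FGFR4 and 37.4% of FGFRL1, where the median gene had 26.4%.

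**Figure D2:**
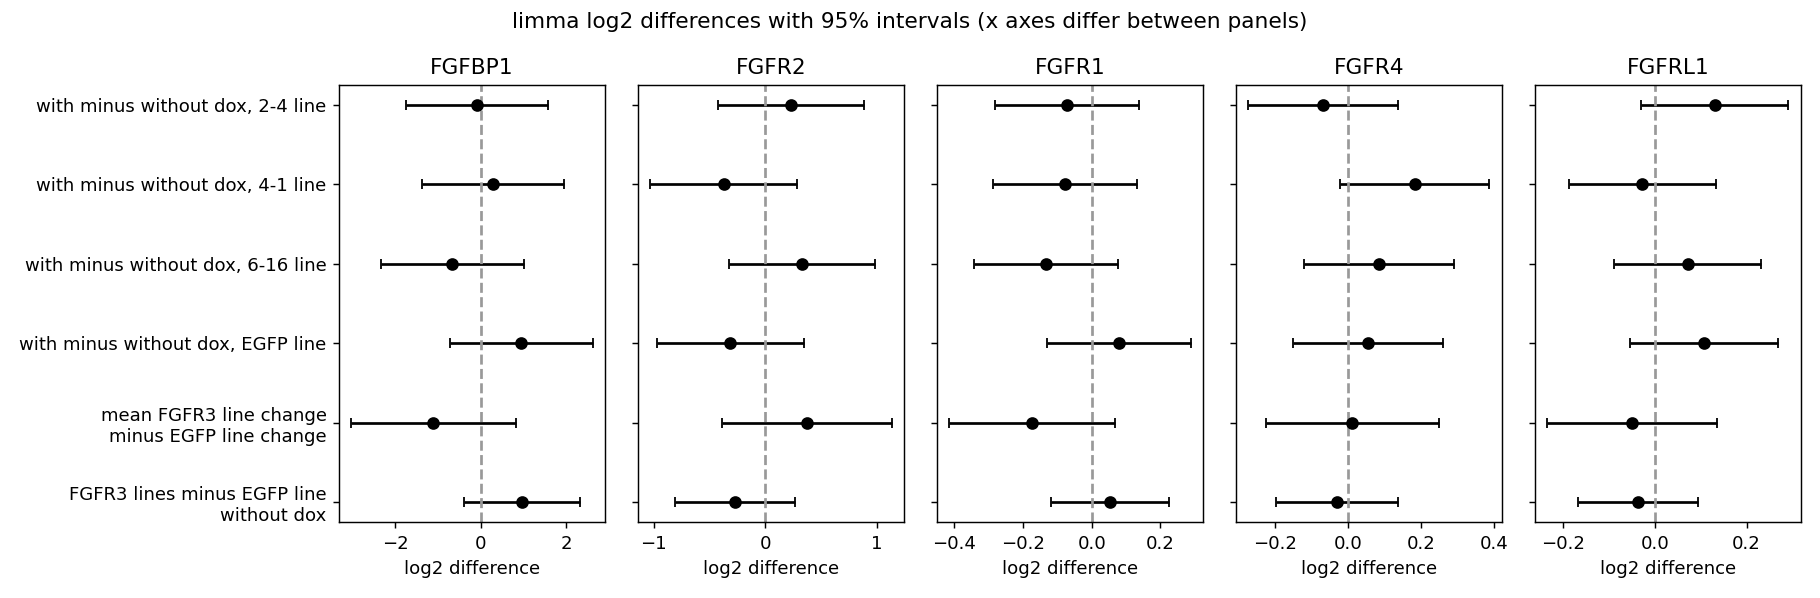
Log2 differences (horizontal axes, which differ between panels) of the 5 genes in 6 comparisons by label, with 95% intervals from limma. Every interval spans 0, and those of FGFBP1 are the widest, reaching from -3.02 to 0.82 for the FGFR3 lines minus the EGFP line.

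The arrays were next set out by TACC3, read on its probe set 218308_at. On 9 arrays its log2 level was below 11.6, from 10.49 to 11.43 with a median of 11.34, and on 15 it was above, from 11.82 to 12.62 with a median of 12.09. This is a split on a measured level and not a treatment, so that the ranges of the 2 sides are given without a mean or a test. Of the 9 arrays below, 4 were labelled with and 5 without doxycycline, and 6 were labelled as FGFR3 hairpin lines and 3 as the EGFP line. For all 24 arrays the most similar array lay on the same side. The 3′ excess of the degradation controls also differed. For GAPDH it ran from 0.282 to 0.424 below and from 0.196 to 0.292 above, and for ACTB from 0.788 to 1.17 below and from 0.702 to 0.968 above. Its part in the levels of the 5 genes was not tested.

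FGFBP1 was lower on every array with TACC3 below 11.6. Its log2 level ran from 8.84 to 9.15 with a median of 9.01 there, and from 10.16 to 11.38 with a median of 11.00 above. The sides were 1.01 apart at their nearest, and the medians differed by -1.99. FGFR2 lay the other way. It ran from 10.07 to 10.43 with a median of 10.27 on the arrays below, and from 9.27 to 9.88 with a median of 9.45 on those above, and the sides were 0.19 apart at their nearest.

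The other 3 genes overlapped between the sides. FGFR1 ran from 8.82 to 9.05 (median 8.90) below and from 8.68 to 9.14 (median 8.85) above. FGFR4 ran from 7.10 to 7.31 (median 7.19) below and from 7.09 to 7.52 (median 7.35) above. FGFRL1 ran from 8.57 to 8.85 (median 8.68) below and from 8.54 to 8.87 (median 8.72) above. Thus 2 of the 5 genes had sides that did not overlap, 1 lower and 1 higher below the threshold, where 6% of all genes did so in either direction, 3.09% lower and 2.9% higher. The 5 genes were chosen with earlier results of these data known, so that this count beside that share is no test of the set. In these bulk arrays fewer cells with a gene and less of its RNA per cell cannot be told apart. The array just below the threshold (EGFP without doxycycline, replicate 1, TACC3 11.43) had FGFBP1 at 9.06 and FGFR2 at 10.43. The array just above it (6-16 without doxycycline, replicate 2, TACC3 11.82) had FGFBP1 at 10.16 and FGFR2 at 9.59.

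**Figure D3:**
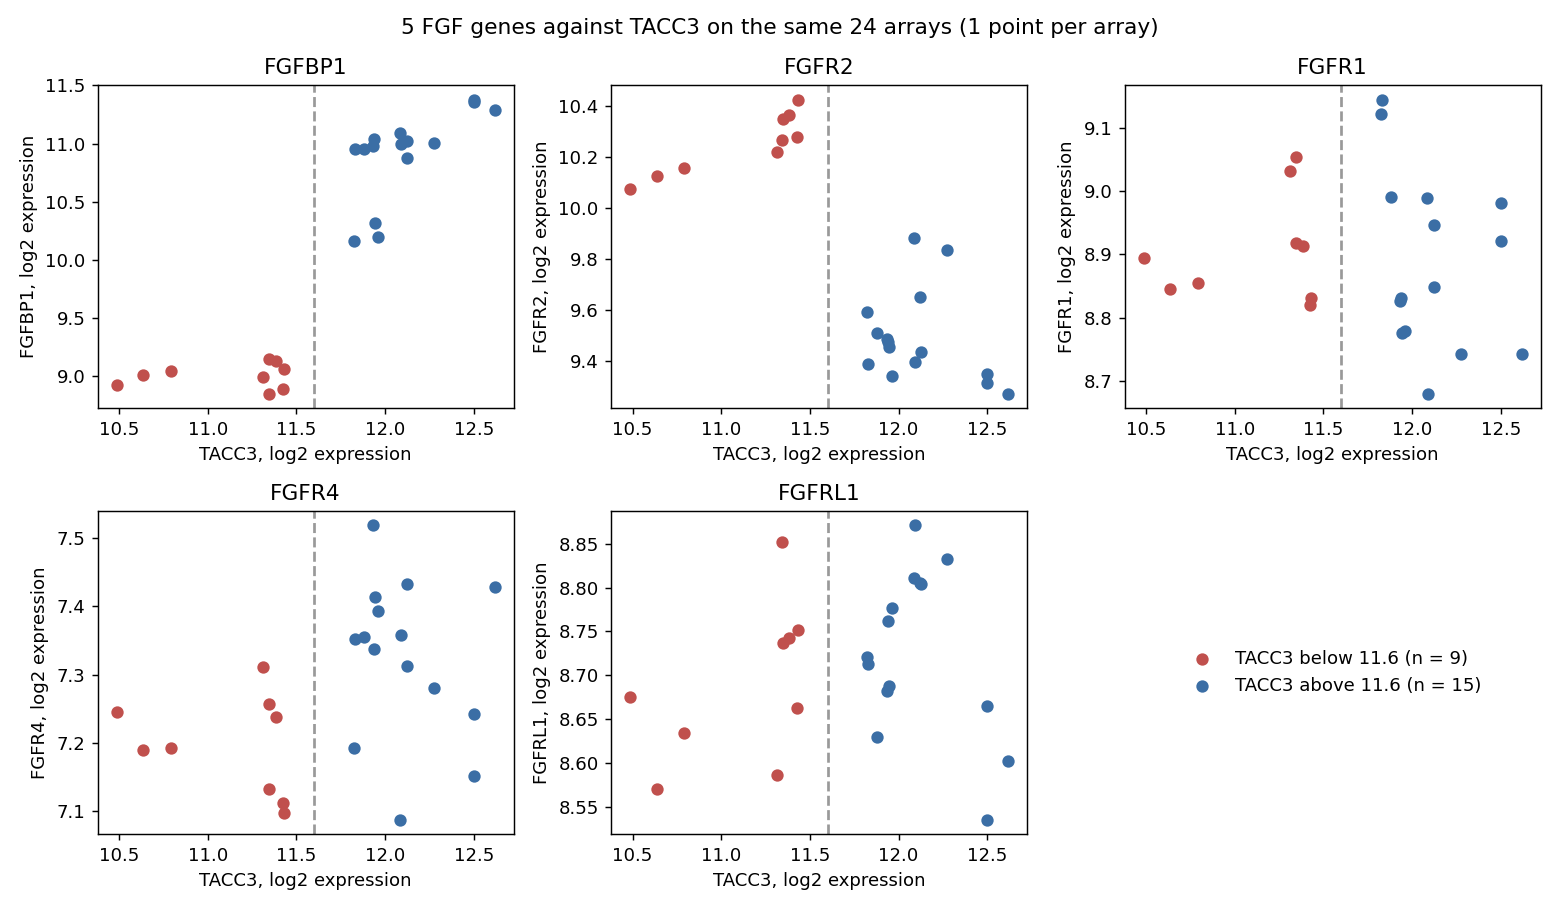
Log2 expression of each of the 5 genes (vertical axes) against log2 TACC3 (horizontal axes) on 24 arrays, 1 point per array, with a dashed line at 11.6. FGFBP1 is lower and FGFR2 is higher on all 9 arrays left of the line, while FGFR1, FGFR4 and FGFRL1 overlap.

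Within the sets of 3 mutually nearest arrays the levels were close. The 9 arrays with low FGFBP1 made up 3 such sets, with FGFBP1 between 8.84 and 9.15. A set made of 6-16 without doxycycline replicate 2, 4-1 with doxycycline replicate 2 and EGFP without doxycycline replicate 2 lay between, at 10.16 to 10.31. Other sets lay at 10.95 to 11.03, and the set with the highest TACC3, at 12.50 to 12.62, had FGFBP1 at 11.29 to 11.38. These 3 arrays were labelled without doxycycline, 2 of the 6-16 line and 1 of the 2-4 line, and they also held FGFR2 at 9.27 to 9.35. Among all 24 arrays FGFBP1 and FGFR2 had a Pearson r of -0.89, and FGFR2 and FGFR4 had one of -0.64, as descriptions over arrays that share sets.

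The probe sets of each gene were compared. For FGFR2, 3 of 11 did not overlap between the sides, all higher below the threshold. Besides the probe set used, 208228_s_at ran from 9.47 to 9.72 (median 9.67) below and from 8.69 to 9.20 (median 8.84) above, and 203639_s_at from 8.37 to 8.73 (median 8.63) below and from 7.71 to 8.19 (median 7.92) above. Of the 8 that overlapped, 211401_s_at ran from 7.96 to 8.41 (median 8.29) below and from 7.65 to 8.14 (median 7.84) above. The 208234_x_at probe set ran from 8.87 to 9.23 (median 9.05) below and from 8.55 to 9.01 (median 8.84) above. The other 6 had dim levels, between 5.06 and 7.72, and their medians differed by 0.12 or less. FGFBP1 had 1 probe set and so no second reading. None of the 7 probe sets of FGFR1, the 4 of FGFR4 or the 2 of FGFRL1 separated the sides.

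**Figure D4:**
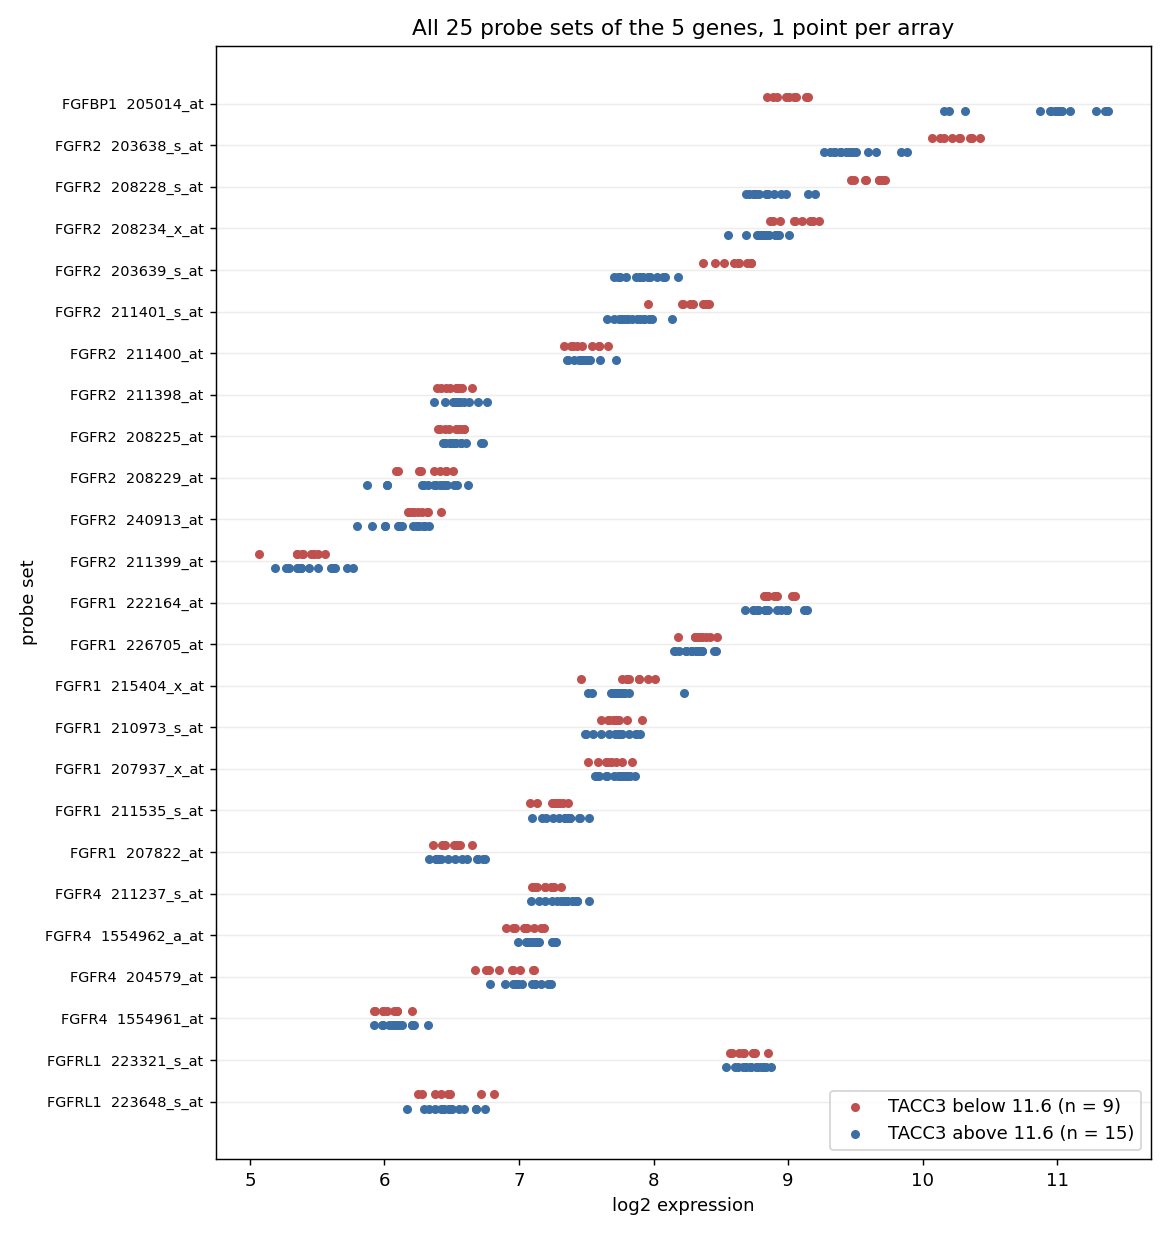
Log2 expression on 24 arrays (horizontal axis, 1 point per array) of all 25 probe sets of the 5 genes (rows), with arrays below TACC3 11.6 drawn just above those beyond it in each row. FGFBP1 and 3 of the 11 FGFR2 probe sets separate the 9 arrays from the 15, and the brightest readings of the other genes do not.

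FGFR3 itself had 2 probe sets that differed on this split. The dimmer, 204380_s_at, ran from 8.71 to 9.88 (median 9.21) below and from 10.34 to 11.20 (median 10.59) above, without overlap. The brighter, 204379_s_at, ran from 11.13 to 12.20 (median 11.85) below and from 11.36 to 12.34 (median 12.05) above, with overlap. The 2 probe sets parted on the set of like arrays with the highest TACC3, where FGFBP1 was highest too. There the brighter was at 11.36 to 11.43, against 11.92 or more on all others above the threshold. The dimmer was at 11.03 to 11.20 there, against 10.95 or less. They also parted on another set, below the threshold. It held EGFP without doxycycline replicate 3, 4-1 with doxycycline replicate 1 and 2-4 with doxycycline replicate 2. In that set the brighter was at 11.13 to 11.34, against 11.83 or more on all others below. The dimmer was at 9.19 to 9.29 there, with other arrays below the threshold on both sides of it. The correlations with FGFR3 given under other settings used the brighter probe set. They were not run without the arrays of either set or with the dimmer probe set.

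Of 13 relations to TACC3, 10 within a side and 3 over all arrays, 2 passed, both within a side. On the 15 arrays above the threshold FGFBP1 was higher where TACC3 was higher, with a Pearson r of 0.67 (permutation test, two-sided p = 0.00683, adjusted p = 0.0444) and a Spearman rho of 0.70 (adjusted p = 0.0303 by permutation). Among the 9 arrays below, the r was 0.14 (exact permutation test, adjusted p = 0.721). Without the 2 arrays farthest from the median TACC3 the first r was 0.57, with an adjusted p of 0.274 by permutation, so that the call was lost while the r stayed above 0. For FGFR2 the relation was found on the other side. On the 9 arrays below, r was 0.89 (exact permutation test, two-sided p = 0.000204, adjusted p = 0.00265) with a rho of 0.95 (adjusted p = 0.00459 by exact permutation). Without the 2 farthest arrays it was 0.74, adjusted p = 0.219 by exact permutation, and this call was lost too. On the 15 above, r was -0.24 (adjusted p = 0.615 by permutation). Since the arrays come in sets of like profile, these permutations, and those against FGFR3, treat arrays as independent that may not be. TACC3 is also the level that set the sides, so that the 2 calls are no separate support for the split. FGFR1, FGFR4 and FGFRL1, whose sides overlapped, had pooled r of -0.12, 0.36 and 0.18 over 24 arrays. The adjusted p was 0.615, 0.361 and 0.615 by permutation. Their rho was -0.29, 0.37 and 0.22, with adjusted p of 0.284, 0.284 and 0.437, and without the 2 farthest arrays r was -0.21, 0.35 and -0.0069. Against TACC3 none of the 3 passed, on all arrays or within a side.

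The genes whose levels over the 24 arrays were most like each member's, by Pearson r, were named. For FGFBP1 they were INSIG1 (0.99), which holds the sterol sensor in the endoplasmic reticulum, SNRPF (0.99), a core protein of the spliceosome, and DHCR7 (0.99), the last enzyme of cholesterol synthesis. For FGFR2 they were MUC15 (0.99), a membrane mucin, CDC42EP3 (0.98), an effector of CDC42, and MATN2 (0.98), a matrix protein. Like their members, all 6 had sides that did not overlap, beside 6% of all genes. They were picked on these same arrays for their r to genes that split, so that this count is no separate support. The closest genes were less like FGFR1 (FBXO40, 0.67, LIMS2, 0.67 and CPEB1, 0.66), FGFR4 (GPR45, 0.73, EXTL1, 0.73 and BRICD5, 0.73) and FGFRL1 (GALNT18, 0.84, C1QTNF6, 0.82 and SF3A2, 0.82), and the sides of all 9 overlapped.

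The rest of the FGF system was read from 5 lists, of which 63 genes were measured. By label 0 genes of any list passed in any comparison by limma. The member of each with the largest mean FGFR3 line difference minus the EGFP line difference was the ligand FGF7 at -0.20 ± 0.12 (SE), the binding protein FGFBP2 at -0.38 ± 0.19, the heparan sulfate sulfotransferase HS3ST1 at -0.56 ± 0.48, the RAS exchange factor SOS1 at 0.34 ± 0.30 and the ERK phosphatase DUSP6 at -0.62 ± 0.82. Medians of that difference were -0.07 for 22 ligands, -0.01 for 13 co-receptors and carriers, -0.0016 for 11 heparan sulfate enzymes, 0.07 for 10 adaptors and -0.20 for 7 inhibitors, beside -0.02 for all genes.

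By TACC3 level, 9 of the 63 genes had sides that did not overlap, where 6% of all genes did. The lists too were chosen with earlier results of these data known, so that this is no test of them. No test of a difference between the lists was run. None of the 22 ligands split, and of 13 co-receptors and heparan sulfate carriers only the proteoglycan HSPG2 did, at 10.59 to 10.88 below and 10.08 to 10.58 above. Of 11 heparan sulfate enzymes, HS3ST1 was lower below the threshold, at 8.66 to 9.12 against 9.68 to 10.31 above. The sulfatase SULF2 was lower too, at 8.41 to 8.86 below and 9.30 to 10.22 above, and the sulfotransferase HS6ST1 was higher, at 9.63 to 9.84 below and 9.26 to 9.60 above. These 3 act on the sugar that FGFs and FGFBP1 bind. Of 10 adaptors SOS1 was higher, at 10.42 to 10.80 below and 9.82 to 10.27 above, and SHC1 lower, at 12.49 to 12.75 below and 12.86 to 13.17 above. Of 7 inhibitors 3 were lower and 0 higher. DUSP6 ran from 10.73 to 11.40 below and from 12.50 to 12.97 above. SPRY4 ran from 8.13 to 8.54 below and from 8.62 to 8.96 above, and SPRED2 from 9.70 to 10.20 below and from 10.36 to 10.76 above. The genes NDST2, FRS2 and CRK of these lists were not measured by a probe set with their symbol alone. The median difference between the medians of the sides was -0.42 for the inhibitors and lay between -0.03 and 0.07 for the other 4 lists, beside -0.01 for all genes.

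Marker lists were read beside these levels. The mean log2 level of 15 epithelial markers ran from 11.93 to 12.22 on arrays below the threshold and from 11.79 to 12.06 above it. The 10 fibroblast markers ran from 7.67 to 7.80 below and from 7.63 to 7.81 above, the 10 leukocyte markers from 6.66 to 6.88 below and from 6.62 to 6.87 above, and the 8 endothelial markers from 7.15 to 7.32 below and from 7.18 to 7.34 above. Of the markers of other cell types, 0 separated the sides, and of the 15 epithelial markers 5 did, beside 6% of all genes, with KRT18 lower and CDH1, KRT13, GATA3 and UPK1A higher below the threshold. Marker lists, like the others, were chosen with earlier results of these data known. Their part in the levels of the 5 genes was not tested.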

How the data were processed

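The deposited values were log2 expression values of 54675 probe sets on 24 Affymetrix arrays. The submitters' processing notes name RMA and affy, with no version given. Per the labels' protocols, total RNA was treated with DNase and 3 µg was made into biotinylated cRNA. Array medians were 6.98 to 7.08, 0 pairs of arrays were identical, and an array has no read depth, so that the number of arrays limits precision. Quantile normalization within RMA removes a shift that most genes share.

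The platform annotation named the probe sets: 41097 had 1 symbol, 1801 several and 11777 none, and the last 2 kinds were left out. The RefSeq gene table of GRCh38.p14 matched 41043 and changed 0 symbols. The probe set with the highest mean stood for a gene, and no filter on low values was used. Limma 3.58.1 (R 4.3.3) was fitted to all arrays with 1 mean per labelled group, 16 residual and 3.13 prior degrees of freedom, and gave adjusted p-values by Benjamini-Hochberg over 19775 genes at 0.05. The steps were tested on simulated data. Correlations used 100000 permutations, or all of them for 9 arrays or fewer, adjusted over 13 relations. The ranges of FGFBP1 and FGFR2 did not overlap between the sides of the threshold, so that no pooled correlation with TACC3 is given for them. Named genes were the 5 members, FGFR3, TACC3, 1 gene of each list with the largest difference when none passed, and the 3 most similar genes per member; genes that split by TACC3 level and markers were named after their values were seen. The members and lists were chosen with earlier results of these data known. Alternatives were a replicate block, array weights, centring each array, a filter on low genes, the mean of all probe sets, only the arrays compared, and leaving out each array.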

Additional observations from a re-analysis of the deposited data

How the results depend on the processing

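Of 41 counts of genes called by label under other settings, 38 stayed at 0. The exceptions were all in the 6-16 line, with 1 gene (TNP1, -0.40) under the replicate block, 1 (FAM171B, 1.51) with only the arrays of that line and 1291 with array weights, and the cause was not tested. Both names were chosen after their values were seen, and the 5 genes were not among those called. Whether same-numbered arrays of a line were pairs was not settled. Of 12 such pairs, 9 correlated above 0.1 (range -0.53 to 0.61), and 15 of 24 arrays correlated best with their own number. A replicate effect is thus not excluded, and the block changed no other call. Of 169 differences of the 5 genes, 162 kept their direction and none passed. With array weights the FGFR3 lines minus the EGFP line without doxycycline gave -0.0075 for FGFR1 and 0.0054 for FGFRL1. With the mean of all probe sets, the 6-16 line gave 0.017 for FGFR1 and -0.042 for FGFRL1, the mean FGFR3 line difference minus the EGFP line gave -0.10 for FGFR4, and the lines without doxycycline gave -0.054 for FGFR1 and 0.037 for FGFR4.

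Leaving out 1 array kept every count of genes at 0 and turned 19 of 300 differences. FGFBP1 ranged from -0.82 to 0.62 in the 2-4 line (its sign turned without replicate 2 with doxycycline, or 1 or 3 without it). In the 4-1 line it ranged from -0.18 to 0.96 (turned without replicate 3 with doxycycline, or 1 or 2 without it). It ranged from -1.06 to -0.0099 in the 6-16 line (nearest to 0 without replicate 2 with doxycycline) and from 0.63 to 1.56 in the EGFP line. FGFR2 kept its sign, at 0.018 to 0.46 in the 2-4 line, -0.67 to -0.22 in the 4-1 line, 0.14 to 0.47 in the 6-16 line, -0.64 to -0.095 in the EGFP line, 0.16 to 0.70 for the mean FGFR3 line difference minus the EGFP line, and -0.60 to -0.056 between lines without doxycycline. FGFR4 ranged from -0.15 to 0.013 in the 2-4 line (turned without replicate 2 with doxycycline). Its range was -0.030 to 0.12 in the EGFP line (turned without replicate 1 without doxycycline) and -0.11 to 0.033 between lines without doxycycline (turned without EGFP replicate 2). For the mean FGFR3 line difference minus the EGFP line it was -0.052 to 0.096, where 7 arrays turned it, namely EGFP replicate 3, 2-4 replicate 1 and 4-1 replicate 3 with doxycycline, and EGFP replicates 2 and 3, 2-4 replicate 2 and 4-1 replicate 3 without it. FGFR1 ranged from -0.014 to 0.22 in the EGFP line (turned without replicate 2 with doxycycline). FGFRL1 ranged from -0.075 to 0.014 in the 4-1 line (turned without replicate 3 without doxycycline) and from -0.098 to 0.010 for the mean FGFR3 line difference minus the EGFP line (turned without EGFP replicate 3 without doxycycline).

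For the correlations with TACC3, FGFR1 gave a pooled r of 0.099 with the mean of its probe sets. Below the threshold it gave a rho of -0.25, and -0.14 against FGFR3 (204379_s_at). FGFR2 below gave 0.74 without the 2 farthest arrays and 0.10 against FGFR3, and above 0.088 and 0.71. FGFR4 above gave 0.051 against FGFR3. FGFRL1 pooled gave -0.0069 without the 2 farthest arrays and 0.63 against FGFR3, and above 0.73 against FGFR3. FGFBP1 below gave -0.12 without the 2 farthest arrays, and above gave 0.57 without them and -0.64 against FGFR3. With FGFR3 in place of TACC3, 4 passed, over arrays that share sets. Adjusted p by permutation was 0.0135 for FGFRL1 pooled and above, 0.0225 for FGFR2 above and 0.0335 for FGFBP1 above. The cause was not tested.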
